A study of Mus musculus with 8 samples.

Results

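The genes that release calcium into the cytosol of a muscle fibre and pump it back were followed in the quadriceps of Folfiri-treated mice. The 10 genes (Ryr1, Cacna1s, Trdn, Jph1, Casq1, Casq2, Atp2a1, Atp2a2, Sln and Pln) were chosen by name for their role, and all 10 were found among the 12896 genes listed in the deposited RNA-Seq table. Male CD2F1 mice, 8 weeks old, received Folfiri or the vehicle alone, and quadriceps RNA of 4 animals per group was sequenced. Folfiri combines 5-FU (30 mg/kg), leucovorin (90 mg/kg) and CPT-11 (24 mg/kg), injected i.p. 2 times a week for up to 5 weeks. Both groups share strain, sex and age, the labels name no tumor and no engineered allele, and the drugs are the labelled difference between them. The comparison asks whether the transcripts of calcium handling differ between the drug-treated and the control muscle.

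In a skeletal muscle fibre, an action potential runs down the transverse tubules and moves a voltage sensor, which opens the release channel of the sarcoplasmic reticulum. Calcium leaves the store, where calsequestrin holds it, and activates the contractile filaments, after which pumps of the SERCA family return it and the fibre relaxes. Fast and slow fibres differ in the pump and calsequestrin genes they use, and small membrane peptides restrain the pumps.

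Total counts per library ran from 8505985 to 21056818, and the scaling factors (TMM, which corrects for differences in composition) from 0.898 to 1.17. Levels are given as CPM, the counts of a gene relative to the scaled size of its library, and levels of different genes are compared as CPM per kilobase of transcript. Log2 ratios of 2 genes within a library are ratios of reads, not corrected for length, and serve only to compare the groups. The 6 skeletal muscle markers summed to 71878 to 102901 CPM in all 8 libraries, which matches the labelled tissue. Markers of other cells were not level: the 6 hepatocyte markers with reads summed to 0.654 to 9.2 CPM in Vehicle and 7.23 to 204 CPM in Folfiri muscle, highest in Folfiri 1, and the 8 adipocyte markers to 210 to 1818 CPM in Vehicle and 185 to 551 CPM in Folfiri muscle, highest in Vehicle 2. The 5 smooth muscle markers summed to 198 to 271 CPM in Vehicle and 116 to 221 CPM in Folfiri muscle, and the 6 macrophage markers to 44.2 to 75.3 and 61.4 to 101 CPM. The 6 endothelial markers summed to 259 to 398 CPM in Vehicle and 136 to 317 CPM in Folfiri muscle, lowest in Folfiri 1, and the 7 nerve and Schwann cell markers to 62.7 to 162 and 48.9 to 104 CPM, highest in Vehicle 2. The 4 erythroid markers with reads summed to 63.8 to 143 CPM in Vehicle and 17.8 to 99.3 CPM in Folfiri muscle. Of 10 heart muscle markers, 5 had rows (Myl4, Myh6, Tnnt2, Ryr2 and Cacna1c), which summed to 15.3 to 34.2 CPM in Vehicle and 9.19 to 22 CPM in Folfiri muscle, and the other 5 were not analysed here. The part of these markers in the values below was not tested. Because a piece of whole muscle was sequenced, fewer fibres of a type and less RNA per fibre cannot be told apart.

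None of the 10 genes passed the test for a difference between Folfiri and Vehicle muscle, and their levels differed widely from gene to gene. By edgeR's quasi-likelihood test with Benjamini-Hochberg adjustment, 0 of the 10 were higher and 0 lower, against 0.00776% of all 12883 tested genes higher and 0% lower. Before adjustment, 0 of the 10 reached p under 0.05 in either direction, against 5.48% of all genes in the higher and 4.02% in the lower direction. Every member's groups overlapped, while all Folfiri libraries lay above all Vehicle libraries in 2.87% of all genes and below them in 2.66%. By edgeR's exact test, DESeq2 and limma voom, 0 members passed as well, against 86, 77 and 3 of all 12883 tested genes. The log2 fold change (Folfiri over Vehicle) was positive for 2 members and negative for 8, with a median of -0.23 against 0.01 over all genes. Scaled by library totals, the median of all genes moved to 0.14 and that of the members to -0.10, still with 2 positive and 8 negative, and with RLE size factors 1 was positive and 9 negative.

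Per kilobase the 10 genes spanned a wide range of abundance, led by the pump gene of the fast fibre. Atp2a1 stood at 13131 ± 3403 CPM per kb (SD over the 8 libraries, both groups), Casq1 at 2090 ± 708 and Ryr1 at 472 ± 144. Trdn stood at 421 ± 93.5, Cacna1s at 253 ± 47.7 and Jph1 at 101 ± 17.3 CPM per kb. The slow and cardiac forms and the pump inhibitors came last, with Atp2a2 at 23.5 ± 21.2, Casq2 at 13.7 ± 8.36, Sln at 3.11 ± 2.66 and Pln at 0.716 ± 0.662 CPM per kb. In this order the library ranges of Ryr1 and Trdn overlapped, as did those of each neighbouring pair from Atp2a2 down to Pln, and the remaining neighbours did not overlap. The spread over the 8 libraries was narrow for Jph1 and wide for the low genes. For each gene the highest and the lowest library were in opposite groups, so this spread includes any difference between the groups. The highest library held 1.64 times the lowest for Jph1, 15.5 times for Atp2a2, 16.6 times for Sln (95% counting interval 4.47 to 139, since the lowest library held 2 reads) and 25.7 times for Pln (8.41 to 128, with 3 reads in the lowest). These intervals cover counting error only.

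**Figure D1:**
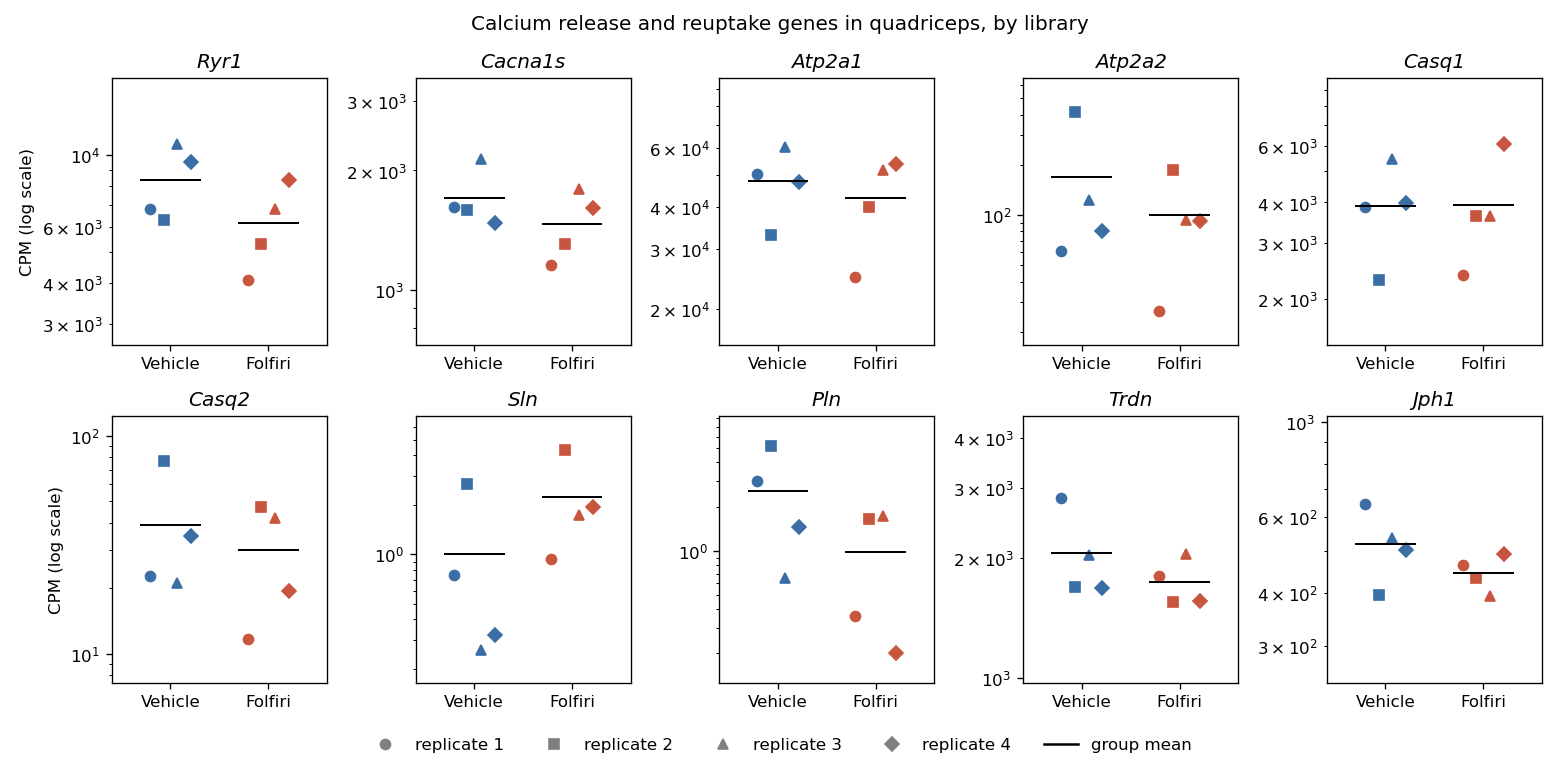
CPM (log axis, scaled separately in each panel) of the 10 genes in the 4 Vehicle and 4 Folfiri libraries, 1 symbol per replicate number, with the group mean as a black line. The groups overlap in every panel, Folfiri 1 (circle) is the lowest library for Ryr1, Cacna1s, Atp2a1, Atp2a2 and Casq2, and Vehicle 2 (square) is the highest for Atp2a2, Casq2 and Pln.

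Promoters of 3 members are shown because Atp2a1 and Casq1, the most abundant per kilobase, had the highest Pearson's r of any pair of members (0.878). Casq2, the slow and cardiac form, ran with neither and is shown beside them. RefSeq (GRCm38.p6) gave a promoter for 6 of the 10 genes, and the 250 bases before the start are printed in the direction of the gene, with E-boxes in capitals.
Atp2a1 promoter, chr7:126463074-126463323, minus strand: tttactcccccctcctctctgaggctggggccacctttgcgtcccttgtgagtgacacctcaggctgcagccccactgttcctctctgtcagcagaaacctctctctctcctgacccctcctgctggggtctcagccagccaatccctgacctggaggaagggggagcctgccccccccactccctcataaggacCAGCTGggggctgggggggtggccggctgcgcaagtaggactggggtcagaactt
Casq1 promoter, chr1:172219896-172220145, minus strand: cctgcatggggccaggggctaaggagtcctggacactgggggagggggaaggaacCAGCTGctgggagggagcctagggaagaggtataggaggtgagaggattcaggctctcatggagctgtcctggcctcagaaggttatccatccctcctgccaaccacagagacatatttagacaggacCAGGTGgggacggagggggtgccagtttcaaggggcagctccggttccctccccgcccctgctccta
Casq2 promoter, chr3:102086165-102086414, plus strand: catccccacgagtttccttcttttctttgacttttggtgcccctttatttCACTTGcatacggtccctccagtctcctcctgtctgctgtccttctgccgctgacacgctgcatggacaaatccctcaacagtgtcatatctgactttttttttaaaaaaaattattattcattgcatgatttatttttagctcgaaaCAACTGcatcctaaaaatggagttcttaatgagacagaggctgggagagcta
An E-box (CANNTG, the core bound by MyoD and related factors) was searched on both strands together with the M-CAT element (CATTCC), the TATA box (TATAAA), the GC box (GGGCGG) and the MEF2 site, and no match overlapped another. Atp2a1 held 1 E-box, whose first base lies 55 bases before the start, and Casq1 held 2, at 195 and 67 bases before it. Casq2 held 2 E-boxes, at 200 and 52 bases before the start, and a MEF2 site at 69 bases. A GC box was found in Casq1, 15 bases before the start, and in neither of the others. Of 27025 promoters of the same length, 66% held an E-box, 3.01% a MEF2 site, 32.9% a GC box, 12.6% an M-CAT element and 13% a TATA box. The E-boxes are therefore no rare feature, and a match describes letters, not a bound site. The base composition also differed, with 64% G and C in Atp2a1, 61.6% in Casq1 and 41.6% in Casq2.

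Transcripts of the release machinery were abundant in both groups and did not pass the test. Ryr1, the calcium release channel, lies on chromosome 7 of mm9 from 29788359 to 29910170 on the minus strand. Its level was 6802, 6295, 10817 and 9539 CPM in Vehicle 1 to 4 and 4108, 5285, 6806 and 8392 CPM in Folfiri 1 to 4. The Folfiri values reached lower than the Vehicle values, but 2 of the Folfiri libraries lay within the Vehicle range. The means were 8363 ± 2169 and 6148 ± 1859 CPM (SD, n = 4 each), a log2 fold change of -0.44 (standard error 0.29, 95% confidence interval -1.07 to 0.18, adjusted p = 0.64 by the quasi-likelihood test of edgeR). The microRNA gene Mir1963 lies inside Ryr1 on the same strand and took 3558 reads against 773614 for Ryr1, and whether reads of the host gene were counted there was not tested.

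Cacna1s encodes the pore subunit of the dihydropyridine receptor, the voltage sensor of the transverse tubule (chromosome 1, 137949478 to 138016399, plus strand). It stood at 1614, 1588, 2137 and 1473 CPM in Vehicle 1 to 4 and at 1156, 1306, 1797 and 1607 CPM in Folfiri 1 to 4. As for Ryr1, Vehicle 3 was the highest and Folfiri 1 the lowest library, and the other libraries of both groups lay between them. The log2 fold change was -0.22 (standard error 0.21, 95% confidence interval -0.68 to 0.25, adjusted p = 0.767 by the quasi-likelihood test). In CPM per kb, Ryr1 stood 1.61 to 2.64 times above Cacna1s in the Vehicle libraries and 1.45 to 2.13 times in the Folfiri libraries. The log2 ratio of their reads was 2.27 ± 0.32 in Vehicle and 2.04 ± 0.24 in Folfiri muscle (SD, n = 4 each), which differed by -0.24 (p = 0.257, exact permutation test, two-sided, 70 arrangements, of which the smallest p is 0.0286).

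Trdn and Jph1 encode the scaffold of the triad, and their groups overlapped too. Trdn, triadin, which ties calsequestrin to the release channel, lies on chromosome 10 from 32803289 to 33196515 on the plus strand. It stood at 2832, 1689, 2039 and 1679 CPM in Vehicle 1 to 4 and at 1802, 1554, 2048 and 1561 CPM in Folfiri 1 to 4, a log2 fold change of -0.24 (standard error 0.23, 95% confidence interval -0.73 to 0.25, adjusted p = 0.752 by the quasi-likelihood test). Vehicle 1 stood apart at the top, and without it the log2 fold change was -0.05. Jph1, junctophilin 1, which holds the tubule against the reticulum, lies on chromosome 1 from 16985021 to 17087970 on the minus strand. Its 8 values were the closest together of the 10 genes, at 646, 396, 537 and 504 CPM in Vehicle 1 to 4 and 463, 434, 393 and 493 CPM in Folfiri 1 to 4. A log2 fold change of -0.22 resulted (standard error 0.19, 95% confidence interval -0.63 to 0.18, adjusted p = 0.716 by the same test). Jph1 was highest in Vehicle 1, the library that was also highest for Trdn, and its value without that library was -0.10.

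The calsequestrins, which bind calcium inside the store, were represented mostly by Casq1. Casq1 (chromosome 1, 174140025 to 174150026, minus strand) stood at 3882, 2295, 5466 and 3980 CPM in Vehicle 1 to 4 and at 2373, 3628, 3620 and 6092 CPM in Folfiri 1 to 4. Low and high libraries occurred in both groups, and the means were 3906 ± 1295 and 3928 ± 1558 CPM (SD, n = 4 each). The log2 fold change of 0.0084 had a 95% confidence interval of -0.70 to 0.71 (standard error 0.32, adjusted p = 0.995 by the quasi-likelihood test), and it was -0.0036 with RLE size factors.

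Casq2, the calsequestrin of heart and slow fibres, lies on chromosome 3 from 101890378 to 101950435 on the plus strand. It stood at 22.6, 77, 21.1 and 34.6 CPM in Vehicle 1 to 4 and at 11.7, 47.2, 41.9 and 19.5 CPM in Folfiri 1 to 4. Vehicle 2 was far above the other Vehicle libraries, and within Folfiri muscle 2 libraries were high and 2 low. Folfiri over Vehicle gave a log2 fold change of -0.37 (standard error 0.47, 95% confidence interval -1.38 to 0.64, adjusted p = 0.817 by the quasi-likelihood test), and 0.21 without Vehicle 2. In CPM per kb, Casq1 stood 40 to 348 times above Casq2 in the Vehicle libraries and 103 to 420 times in the Folfiri libraries. The log2 ratio of Casq2 to Casq1 reads was -6.80 ± 1.35 in Vehicle and -7.16 ± 0.98 in Folfiri muscle (SD, n = 4 each), a difference of -0.37 (p = 0.714, exact permutation test), which turned to 0.27 without Vehicle 2 and 0.0095 without Folfiri 4.

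Atp2a1, the SERCA1 pump of fast fibres, had the most abundant transcripts of the 10 genes (chromosome 7, 133589374 to 133606587, minus strand). Its level was 50101, 33055, 60294 and 47404 CPM in Vehicle 1 to 4 and 24876, 40134, 51733 and 53769 CPM in Folfiri 1 to 4. Folfiri 1 lay below every other library, while Folfiri 3 and 4 lay above 3 of the 4 Vehicle libraries. The means were 47714 ± 11239 and 42628 ± 13271 CPM (SD, n = 4 each), a log2 fold change of -0.16 (standard error 0.33, 95% confidence interval -0.89 to 0.56, adjusted p = 0.894 by the quasi-likelihood test) that became 0.025 without Folfiri 1. Rabep2, on the opposite strand, overlaps the last 48 bases of Atp2a1 and took 333 reads against 4954759.

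Atp2a2, the SERCA2 pump of slow fibres and heart, lies on chromosome 5 from 122903522 to 122952234 on the minus strand. It stood at 60.8, 412, 123 and 80.7 CPM in Vehicle 1 to 4 and at 26.6, 186, 93 and 92.5 CPM in Folfiri 1 to 4. The library numbered 2 was the highest in either group, Folfiri 1 was the lowest of all, and the remaining 5 libraries lay between 60.8 and 123 CPM. The means of 169 ± 164 and 99.6 ± 65.7 CPM (SD, n = 4 each) gave a log2 fold change of -0.76 (standard error 0.61, 95% confidence interval -2.08 to 0.55, adjusted p = 0.705 by the quasi-likelihood test). Single libraries set this value, which was 0.18 without Vehicle 2 and -1.26 without Folfiri 2, and limma voom with sample quality weights gave -0.09. In CPM per kb, Atp2a1 stood 134 to 1371 times above Atp2a2 in the Vehicle libraries and 359 to 1559 times in the Folfiri libraries. The log2 ratio of Atp2a2 to Atp2a1 reads was -8.54 ± 1.51 in Vehicle and -8.98 ± 0.89 in Folfiri muscle (SD, n = 4 each), a difference of -0.45 (p = 0.629, exact permutation test) that turned to 0.29 without Vehicle 2.

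The 2 peptides that inhibit the pumps had the fewest reads and the widest intervals. Sln, sarcolipin, known in rodents mainly from atria and slow muscle, lies on chromosome 9 from 53698058 to 53701656 on the plus strand. It stood at 0.752, 2.66, 0.262 and 0.322 CPM in Vehicle 1 to 4 and at 0.933, 4.34, 1.73 and 1.94 CPM in Folfiri 1 to 4, from 2 to 100 reads per library. All Folfiri libraries lay above 3 of the Vehicle libraries, and Vehicle 2 lay above 3 of the Folfiri libraries. The log2 fold change of 1.14 had a 95% confidence interval of -0.29 to 2.56 (standard error 0.65, adjusted p = 0.591 by the quasi-likelihood test). It was 2.25 without Vehicle 2 and 0.58 without Folfiri 2, and limma voom with sample quality weights gave 2.10 (adjusted p = 0.3).

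Pln, phospholamban, the inhibitor of SERCA2 in heart and slow muscle, lies on chromosome 10 from 53057492 to 53065805 on the plus strand. It stood at 3.01, 5.16, 0.654 and 1.45 CPM in Vehicle 1 to 4 and at 0.359, 1.65, 1.73 and 0.201 CPM in Folfiri 1 to 4, from 3 to 64 reads per library. Vehicle 1 and 2 were above every Folfiri library, and Vehicle 3 and 4 were within the Folfiri range. The log2 fold change of -1.38, the largest in size of the 10, had a 95% confidence interval of -2.84 to 0.09 (standard error 0.67, adjusted p = 0.547 by the quasi-likelihood test), and was -0.81 without Vehicle 2. Pln lies wholly inside Cep85l, which runs on the opposite strand and held 40.7, 40.2, 15.3 and 20.1 CPM in Vehicle 1 to 4 and 17.4, 12, 11.3 and 11.5 CPM in Folfiri 1 to 4. Cep85l had a log2 fold change of -1.16 (adjusted p = 0.286 by the same test), and whether the authors' counting used strand is not given in the sources used here, so reads of the 2 genes cannot be told apart with certainty. In summed CPM per kb, the pumps stood 1344 to 22889 times above Sln and Pln in the Vehicle libraries and 1299 to 4102 times in the Folfiri libraries. This sum leaves out Mrln, the pump inhibitor myoregulin, which is in the buffering list below and was named after its values were seen. Mrln stood at 39.5 to 88.1 CPM in Vehicle and 35 to 142 CPM in Folfiri muscle, well above Sln and Pln. The log2 ratio of the summed reads of Sln and Pln to those of the pumps was -14.12 ± 1.67 in Vehicle and -13.86 ± 0.82 in Folfiri muscle (SD, n = 4 each), a difference of 0.26 (p = 0.83, exact permutation test), which turned to -0.37 without Vehicle 3 and -0.12 without Folfiri 2. Adjusted over the 4 ratios compared, every p was 0.83.

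**Figure D2:**
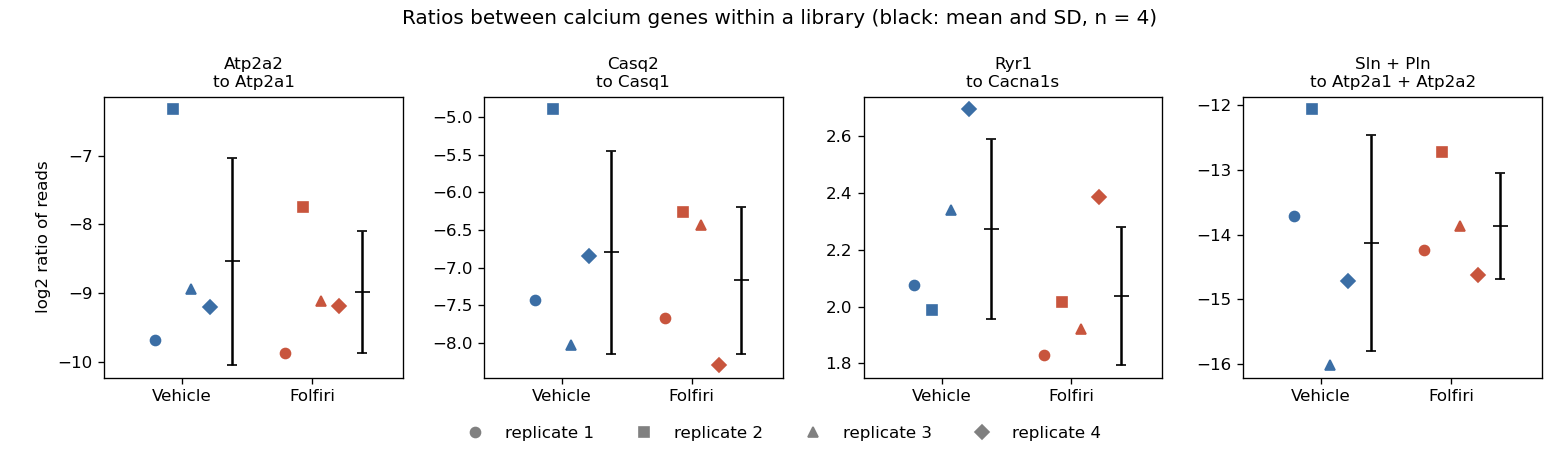
Log2 ratios of reads within each library for 4 pairs of calcium genes, by group, with the mean and SD (n = 4) in black and 1 symbol per replicate number. Vehicle 2 (square) stands highest in the panels of Atp2a2 to Atp2a1 (-6.33) and Casq2 to Casq1 (-4.90), and the groups overlap in all 4 panels.

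**Figure D3:**
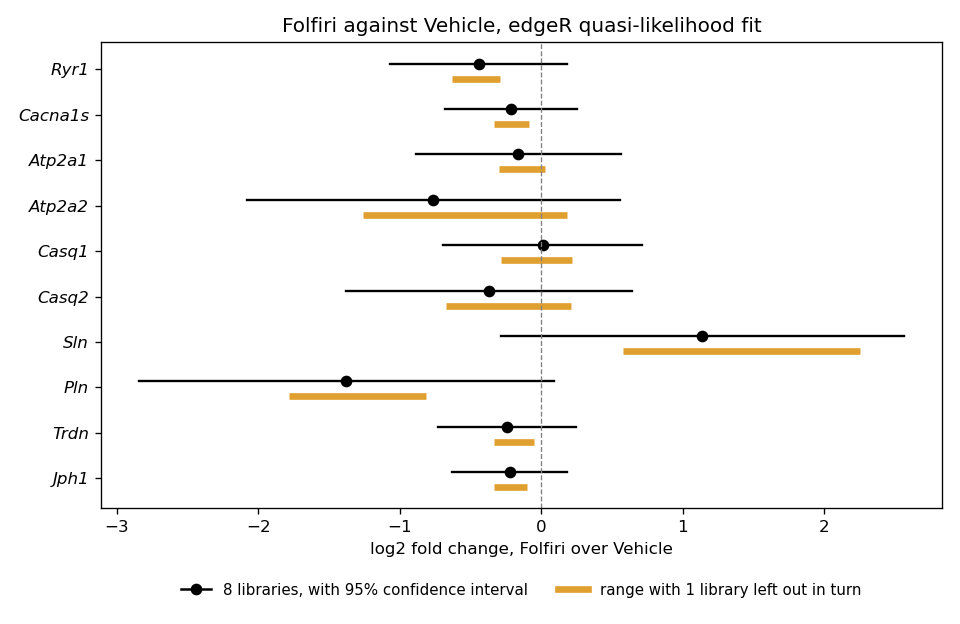
Log2 fold change of Folfiri over Vehicle for each gene with its 95% confidence interval (black, edgeR quasi-likelihood fit of 8 libraries) and the range of the value when each library is left out in turn (orange bar). Every interval contains 0, and the orange bar crosses 0 for Atp2a1, Atp2a2, Casq1 and Casq2.

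The intervals differed in width between the genes. For Jph1 the interval ended at -0.63 and 0.18, while it ran from -0.29 to 2.56 for Sln and from -2.84 to 0.09 for Pln. A p above the threshold does not show that the levels were equal.

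The level of Atp2a2 followed the amount of slow fibre transcripts across the 8 libraries of both groups. The relation within each group was not tested. The 8 slow fibre genes (Myh7, Myl2, Myl3, Tnnt1, Tnni1, Tnnc1, Tpm3 and Myh7b, which build the slow contractile filaments) summed to 86, 1363, 350 and 155 CPM in Vehicle 1 to 4 and to 21.3, 544, 251 and 206 CPM in Folfiri 1 to 4. Vehicle 2 and Folfiri 2 were highest here as for Atp2a2, and Folfiri 1 lowest, and the order of the 8 libraries was the same for both measures. Over the 8 libraries on the log2 scale, Atp2a2 had Pearson's r of 0.986 with this sum (p = 0.000124, adjusted over the 10 genes 0.00124, permutation test over all 40320 pairings). Spearman's rho was 1 (p = 4.96e-05, the smallest these pairings can give for a two-sided test, adjusted 0.000496). Without Folfiri 1 and Vehicle 2, the libraries farthest from the median of the sum, r was 0.975.

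Casq2 had r of 0.854 with the slow fibre sum (adjusted p = 0.0376, permutation test) and rho of 0.738 (adjusted p = 0.229), but r was 0.440 without the same pair of libraries, on which the relation rests. For Pln, r was 0.498 (adjusted p = 0.535, permutation test) and -0.24 without them, and for Sln 0.391 (adjusted p = 0.535) and 0.398. Atp2a1 and Casq1 did not run with the sum, with r of 0.285 and 0.075 (adjusted p = 0.535 and 0.869, permutation test). For Ryr1, Cacna1s, Trdn and Jph1 r was 0.328, 0.443, -0.32 and -0.44, each with an adjusted p of 0.535 by the permutation test. This relation was examined after the data had been seen, and 4 libraries per group are too few for a correlation within each group.

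**Figure D4:**
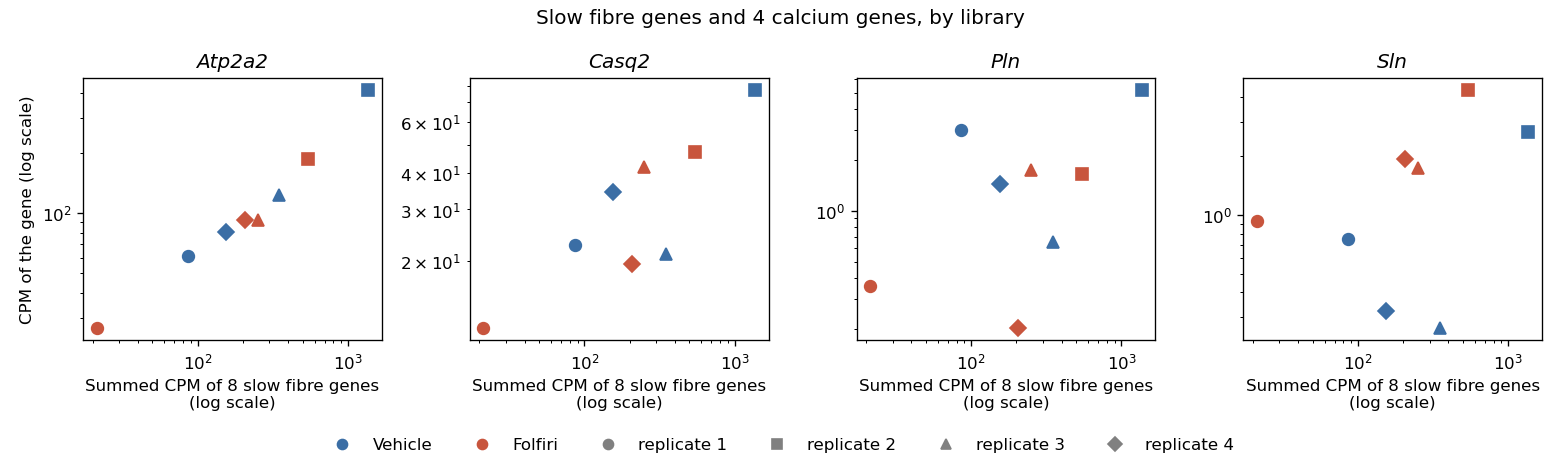
CPM of Atp2a2, Casq2, Pln and Sln (y axis, log scale) against the summed CPM of 8 slow fibre genes (x axis, log scale) in each library, colored by group and with 1 symbol per replicate number. Atp2a2 lies along a line from Folfiri 1 (21.3 and 26.6 CPM) to Vehicle 2 (1363 and 412 CPM) with both groups on it, Casq2 follows more loosely, and Pln and Sln scatter.

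Among themselves, the 10 genes formed 45 pairs, of which 7 had a correlation at an unadjusted p under 0.05 and 0 at an adjusted p under 0.05 by the permutation test over pairings. Atp2a1 and Casq1 had r of 0.878 and rho of 0.786 (adjusted p = 0.104 and 0.314, permutation test), and r of 0.688 without Folfiri 1 and Vehicle 2. Ryr1 and Atp2a1 had r of 0.847 and rho of 0.833 (adjusted p = 0.104 and 0.314, permutation test), and r of 0.542 without Folfiri 1 and Vehicle 3. Atp2a2 and Casq2 had r of 0.868 and rho of 0.738 (adjusted p = 0.104 and 0.344, permutation test), and r of 0.447 without Folfiri 1 and Vehicle 2. By Spearman's rho, Cacna1s with Atp2a1 (0.857), Ryr1 with Atp2a1 and Casq2 with Pln (0.810) ranked above Atp2a1 with Casq1. Folfiri 1 was among the libraries left out in each case, and r was lower without them in the 3 pairs given with it.

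Genes whose levels ran most like a member were searched among 7680 genes of at least 10 CPM, as a description over 8 libraries that share their depth and scaling. The 2 highest of so many genes can reach a high r over 8 libraries without any link, and no p was computed. Reads were few for Sln (2 to 100 per library) and Pln (3 to 64). Ehbp1l1 and Flywch1 ran closest to Ryr1 (r of 0.994 and 0.990), Lrrc47 and Gltscr2 to Cacna1s (0.947 and 0.945) and Sgca, the alpha-sarcoglycan of the muscle membrane, and Wdr18 to Atp2a1 (0.987 and 0.985). Atp2a2 was closest to Myh7, the slow myosin heavy chain, and Tpm3, the slow tropomyosin (0.977 and 0.968). Casq1 was closest to Ranbp3 and Ctps (0.973 and 0.970), and Casq2 to Ndrg1 and Fhl1, a LIM-domain protein of muscle (0.995 and 0.965). Sln was closest to Prg4, the joint lubricant lubricin, and Fmod, the collagen-binding fibromodulin (0.948 and 0.935), genes of joint surfaces and tendon. Pln was closest to Rps6ka5 and Esrrg, an orphan nuclear receptor of oxidative tissues (0.965 and 0.962), Trdn to Rab10 and Ubac2 (0.940 and 0.928) and Jph1 to Nucks1 and Kcnab1 (0.955 and 0.948).

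The partners of the 10 genes did not pass the test either, in any of 5 functional lists. Of 21 triad and release partners, 0 were called by the quasi-likelihood test, 8 log2 fold changes were positive and 13 negative, and the median was -0.16. Srl, sarcalumenin, a calcium-binding protein of the reticulum, stood at 1997 to 2533 CPM in Vehicle and 1434 to 2332 CPM in Folfiri muscle (log2 fold change -0.32, adjusted p = 0.65 by the quasi-likelihood test). Tmem38a, the TRIC-A counter-ion channel, and Bin1, which shapes the transverse tubule, had log2 fold changes of 0.13 and -0.20 (adjusted p = 0.853 and 0.821). Mtm1, the lipid phosphatase myotubularin, was the only partner of this list at an unadjusted p under 0.05, with every Folfiri library (20.1 to 25.3 CPM) below every Vehicle library (26 to 34.1 CPM), a log2 fold change of -0.35 (adjusted p = 0.512). Cav3, the muscle caveolin, was the one gene of this list with every Folfiri library above (adjusted p = 0.571, named after its values were seen). Such single genes are to be read against the whole data set. There, p before adjustment fell under 0.05 for 5.48% of the tested genes upward and 4.02% downward. All Folfiri libraries stood above all Vehicle libraries for 2.87% and below them for 2.66%. The lists that follow are to be read against the same shares.

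Of 15 genes of cytosolic buffering, pumps and exchangers, 0 were called, 5 were positive and 10 negative, and the median was -0.05. Pvalb, parvalbumin, the soluble calcium buffer of fast fibres, stood at 4466 to 12767 CPM in Vehicle and 7448 to 13720 CPM in Folfiri muscle (log2 fold change 0.27, adjusted p = 0.815 by the quasi-likelihood test). Calm3, which encodes the calcium sensor calmodulin, had a log2 fold change of 0.20 (adjusted p = 0.817). Canx, calnexin, a chaperone of the endoplasmic reticulum, stood at 116 to 167 CPM in Vehicle and 79.9 to 120 CPM in Folfiri muscle (log2 fold change -0.44, adjusted p = 0.502), the single gene of this list at an unadjusted p under 0.05.

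Of 10 genes of store-operated calcium entry, which refills the store from outside, 0 were called, 0 had an unadjusted p under 0.05, and 5 were positive and 5 negative. The sensor Stim1 had a log2 fold change of -0.18, the scaffold Homer1 of 0.22 and Saraf, which turns the entry off, of -0.21 (adjusted p = 0.808, 0.793 and 0.753 by the quasi-likelihood test). Of 11 genes of mitochondrial calcium uptake, 0 were called, 0 had an unadjusted p under 0.05, and 4 were positive and 7 negative, with a median of -0.07. Smdt1, the EMRE subunit of the uniporter, had a log2 fold change of 0.37 (adjusted p = 0.586), and Vdac2, a channel of the outer membrane, of -0.01 (adjusted p = 0.986). For its relative Vdac1 every Folfiri library (562 to 904 CPM) lay below every Vehicle library (929 to 1077 CPM), with a log2 fold change of -0.31 (adjusted p = 0.625).

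Of 21 genes of calcineurin, CaMK and calpain, which read the calcium signal, 0 were called, 9 were positive and 12 negative, and the median was -0.03. Rcan1, an inhibitor of calcineurin whose gene is also a target of calcineurin and NFAT, stood at 82.4, 142, 77.6 and 61.3 CPM in Vehicle 1 to 4 and at 53.5, 51.7, 60.2 and 49.1 CPM in Folfiri 1 to 4. All Folfiri values lay below the Vehicle values, by a narrow gap, and the log2 fold change was -0.76 (unadjusted p = 0.00651, adjusted p = 0.387 by the quasi-likelihood test). Nfatc2, a transcription factor that calcineurin activates, stood at 15.7 to 28.7 CPM in Vehicle and 25.8 to 39.6 CPM in Folfiri muscle (log2 fold change 0.62, adjusted p = 0.434). Ppp3cb, a catalytic subunit of calcineurin, Camk2a, a calmodulin-dependent kinase, and Myoz1, which tethers calcineurin at the Z-disc, had log2 fold changes of -0.10, 0.24 and 0.22 (adjusted p = 0.874, 0.73 and 0.792). The signs within these lists moved with the scaling: with library totals the triad list had 10 positive and 11 negative values, the buffering list 9 and 6, the mitochondrial list 6 and 5, the store-operated list 6 and 4 and the calcineurin list 14 and 7. All tested genes moved too, from 6617 positive and 6266 negative with TMM to 8710 and 4173 with library totals.

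The fibre type lists, against which the calcium genes are read, did not pass the test. All 8 slow fibre genes had a negative log2 fold change (median -0.93, 0 called by the quasi-likelihood test and 0 at an unadjusted p under 0.05), but without Vehicle 2 the median was 0.39 with 6 positive and 2 negative. Myh7, Myl2 and Myl3, the slow myosin heavy and light chains, had log2 fold changes of -0.98, -0.57 and -1.10 (adjusted p = 0.705, 0.871 and 0.705). Of 10 fast fibre genes, 0 were called, 3 were positive and 7 negative, with a median of -0.37. Mylpf, the fast regulatory light chain, stood at 6295 to 11675 CPM in Vehicle and 10918 to 18231 CPM in Folfiri muscle (log2 fold change 0.70, adjusted p = 0.492), the single gene of this list at an unadjusted p under 0.05. Myh4, the myosin of the fastest fibres, Tpm1 and Tnnt3 had log2 fold changes of -0.48, -0.46 and -0.07 (adjusted p = 0.733, 0.643 and 0.942 by the same test).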

How the data were processed

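RNA-Seq was performed on quadriceps of 4 Vehicle and 4 Folfiri mice. Per the study's methods, the authors prepared poly(A) libraries with a SOLiD kit, sequenced them strand-specifically, discarded low-quality, rRNA and tRNA reads, aligned the others to mm9 and to splice junctions using bfast, and counted reads per RefSeq gene with bamutils. The deposited raw counts are unscaled, and the deposited gene length, another column, served for CPM per kb. The authors' normalized values and their own comparison (log2 fold changes, p-values and FDR) were not used. Multi-mapped or overlapping reads can shift counts of overlapping genes. Of the 12896 listed genes, those with at least 40 reads over the 8 libraries (12883) entered TMM scaling and testing with the quasi-likelihood test of edgeR 4.0.16 in R 4.3.3, with Benjamini-Hochberg adjustment over all of them (adjusted p under 0.05 called). Log2 CPM used a prior count of 2. Ratios were compared by exact permutation over the libraries. Total counts were 8505985 to 21056818, and correlations between replicates 0.948 to 0.978. Alternatives were edgeR's exact test, DESeq2 1.42.0, limma 3.58.1 voom with sample quality weights, RLE size factors, library totals, other filters, the replicate block and leaving out each library. The scripts were tested on simulated data. The 10 genes, the partner lists and the tests were chosen with earlier results of these data known. Genes named are the 10, each list's 3 most abundant genes and its genes at an unadjusted p under 0.05, and the 2 genes most correlated with each of the 10. The result of 1 gene that this rule names is not reported here. Each library is 1 animal. Coordinates of genes are given on mm9 as deposited, with the start counted from 1, and those of promoters on GRCm38.p6.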

Additional observations from a re-analysis of the deposited data

How the results depend on the processing

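For the 10 calcium genes, 160 log2 fold changes were computed under 16 alternatives. The sign was kept in 152 and turned in 8, 0 genes passed under any of them, and the smallest adjusted p was 0.292. The turned values were 0.025 for Atp2a1 without Folfiri 1, 0.18 for Atp2a2 and 0.21 for Casq2 without Vehicle 2, and, for Casq1, -0.0037 with DESeq2, -0.0036 with RLE size factors, -0.0073 with the replicate block, -0.18 without Vehicle 2 and -0.28 without Folfiri 4. With a library left out in turn, Atp2a1 ran from -0.30 to 0.025, Atp2a2 from -1.26 to 0.18, Casq1 from -0.28 to 0.21 and Casq2 from -0.68 to 0.21. The cause was not tested. Pln had an unadjusted p under 0.05 in 6 of the alternatives, Sln in 3 and Atp2a2 in 1. Among all tested genes, 1006 to 1663 had one, depending on the alternative.

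Over all genes, 1 was called by the quasi-likelihood test, 86 by the exact test, 77 by DESeq2, 3 by limma voom, 3 with library totals, 3 with the replicate block and 0 to 1 with a library left out. With a library left out in turn, the difference in the log2 ratio ran from -0.86 to 0.29 for Atp2a2 to Atp2a1, from -0.77 to 0.27 for Casq2 to Casq1 (0.0095 without Folfiri 4), from -0.35 to -0.10 for Ryr1 to Cacna1s and from -0.37 to 0.95 for Sln and Pln to the pumps (-0.12 without Folfiri 2). Whether the replicate numbers pair the samples is not given in the sources used here. After removing group means, same-numbered libraries correlated at 0.3, 0.136, 0.0557 and 0.196, and the other pairs at -0.295 to 0.294. Vehicle 1 and 4 correlated best with their own number, but Vehicle 2 and 3 better with other numbers, so these values do not decide it. With the replicate block, 0 of the 10 genes passed and 3 (Sln, Atp2a2 and Pln) had an unadjusted p under 0.05. Of all 12883 tested genes, 1663 had one with the block, against 1224 in the main fit. The differences in the ratios are the same with the block by construction. Their p by exact sign flips over the 4 numbers was 0.25 for Atp2a2 to Atp2a1, 0.625 for Casq2 to Casq1, 0.25 for Ryr1 to Cacna1s and 0.875 for Sln and Pln to the pumps. Sign flips of 4 numbers cannot give a p under 0.05, so no ratio could have passed this test. By exact permutation without the block, p was 0.629, 0.714, 0.257 and 0.83.

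The correlation with the slow fibre sum, whose alternatives were chosen after seeing the data, turned sign without Folfiri 1 and Vehicle 2 for Ryr1 (-0.20), Cacna1s (-0.031), Atp2a1 (-0.22) and Pln (-0.24), and with library totals for Casq1 (-0.0021). For Atp2a2 it was 0.975 to 0.986 under the alternatives. Counting error limits Sln and Pln, with 2 to 100 and 3 to 64 reads per library. 0 of 28 groups of values held a library far from the others by Dixon's test.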
